A study of Mus musculus with 6 samples.

Results

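The genes described here are 10 markers of the basal layer of stratified epithelium, read in RNA from mouse bladder tumor organoids, which are small multicellular cultures grown from tumor cells. They are the basal keratin genes Krt5, Krt14, Krt6a, Krt15 and Krt17, the transcription factor gene Trp63, the hyaluronan receptor gene Cd44, the desmosomal cadherin genes Dsc3 and Dsg3, and Col17a1, which encodes a transmembrane collagen of the hemidesmosome. They were picked by name, with earlier results of these libraries known, and make up 10 of the 51912 gene IDs in the deposited table. All 10 passed the filter for testing, a mean of at least 1 TPM over the libraries, as did 9287 genes in all. Of the 10, 3 (Krt15, Trp63 and Dsc3) were below 1 TPM in both libraries with the lowest Krt5 and passed through the other libraries. Libraries came from organoids exposed to SRT1720 (3 libraries), a synthetic compound reported to activate SIRT1, an NAD-dependent deacetylase, and from organoids given vehicle (3 libraries), all of strain C57BL/6. Not given in the sources used here are the SRT1720 dose, the exposure time, how the tumors arose, and whether libraries of a group share an organoid line or an animal. The p-values therefore measure the spread between these libraries, which may be technical in part.

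The bladder lining, the urothelium, has a basal layer on the basement membrane, intermediate cells and a luminal layer of umbrella cells. Basal cells make keratin 5 and keratin 14, a type II and a type I keratin that pair into filaments. These filaments are anchored to neighboring cells at desmosomes, through cadherins of the desmoglein and desmocollin families, and to the basement membrane at hemidesmosomes. p63, the product of Trp63, is a transcription factor required for stratified epithelia to form. In bladder cancer, high levels of these genes mark the basal or basal-squamous class of tumors.

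Levels are in the unit that the table names TPM, which scales reads to the length of the gene and to the library. Recovered depth was 18247612 to 22835603 reads per library. Libraries of a group differed strongly: Krt5 was under 100 TPM in 2 libraries, SRT1720 1 and Vehicle 2, and at least 425 TPM in the other 4. The nearest library to each of the 6, by root-mean-square distance of log2(TPM + 1) over the 10 genes, belonged to the other group: SRT1720 1 lay nearest to Vehicle 2 (0.60), SRT1720 2 to Vehicle 1 (0.65) and SRT1720 3 to Vehicle 3 (0.73). The next library was at least 1.71 away in every case. Over all 9287 genes the nearest libraries were the same ones, at 0.41 to 0.45, but the next were not far behind, at 0.46 to 0.57. That next library was of the same group for all but Vehicle 1. Epcam, a pan-epithelial gene, was at 106, 76.8 and 191 TPM in SRT1720 libraries and at 69.4, 80.7 and 177 TPM in Vehicle libraries. Of other pan-epithelial genes, Cdh1 was at 19.0 and 14.5 TPM in SRT1720 2 and Vehicle 1, against 36.7 to 56.5 TPM elsewhere. Cldn7 was at 0.170 and 0.207 TPM in SRT1720 2 and Vehicle 1, against 13.3 to 21.9 TPM elsewhere. Of the umbrella cell genes, Upk3a was listed at 0 in all 6 libraries, Krt20 stayed at 0.0576 TPM or below and Upk2 at 0.419 TPM or below. Other uroplakin genes differed in level: Upk1b ran from 0.660 to 12.1 TPM, Upk1a reached 1.34 TPM in Vehicle 2, and Upk3b stayed at 0.0201 TPM or below. Markers of other cell types were low: 0 of 10 fibroblast, 2 of 10 leukocyte, 0 of 6 endothelial and 0 of 6 smooth muscle genes reached a mean of 1 TPM.

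Promoter windows from RefSeq on GRCm38.p6, from 250 bases before to 50 bases after a gene's start, were found for Cd44, Krt5, Krt14 and Col17a1. The Krt14 window lies inside the gene as GENCODE draws it and is not shown. The windows below are shown because Krt5 and Col17a1 had nearly the same pattern over the 6 libraries, whereas Cd44 varied least. They run 5′ to 3′ on the minus strand, at chr15:101712856-101713155 for Krt5, chr19:47691993-47692292 for Col17a1 and chr2:102901616-102901915 for Cd44. Capitals mark matches to any motif searched.
Krt5: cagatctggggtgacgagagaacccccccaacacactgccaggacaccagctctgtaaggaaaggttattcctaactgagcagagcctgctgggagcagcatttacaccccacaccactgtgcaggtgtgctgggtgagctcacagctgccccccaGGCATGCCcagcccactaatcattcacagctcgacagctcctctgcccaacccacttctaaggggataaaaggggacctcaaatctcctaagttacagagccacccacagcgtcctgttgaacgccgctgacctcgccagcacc
Col17a1: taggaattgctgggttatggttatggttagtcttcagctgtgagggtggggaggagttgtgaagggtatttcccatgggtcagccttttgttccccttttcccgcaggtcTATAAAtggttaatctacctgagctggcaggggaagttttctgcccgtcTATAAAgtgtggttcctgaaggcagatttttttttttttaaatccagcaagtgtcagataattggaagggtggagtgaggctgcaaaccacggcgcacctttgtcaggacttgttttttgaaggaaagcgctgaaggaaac
Cd44: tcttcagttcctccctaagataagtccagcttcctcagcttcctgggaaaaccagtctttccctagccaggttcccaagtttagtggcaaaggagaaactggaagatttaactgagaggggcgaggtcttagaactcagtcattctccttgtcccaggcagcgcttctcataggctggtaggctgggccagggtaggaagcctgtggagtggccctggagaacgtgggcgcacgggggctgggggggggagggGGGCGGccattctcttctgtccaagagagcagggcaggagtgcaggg

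Both strands were searched for 5 motifs: the p53 family half-site core GNCATGNC (in 6.65% of 32817 windows of this length), the TATA box TATAAA (13.6%), the Sp1 GC box GGGCGG (35.6%), the AP-1 site TGANTCA (7.81%) and the AP-2 site GCCNNNGGC (16.6%). The Krt5 window held 1 match, to the p53 family core at position −94 from the start. The Col17a1 window held TATAAA at −140 and −91, and the Cd44 window held the GC box at position 4. These are matches of letters in the window and no binding was measured. No match overlapped another.

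The comparison of SRT1720 with Vehicle asks whether basal identity differed after exposure to the compound. None of the 10 genes differed between the groups beyond the spread of their libraries. In 9 of them each group held 1 low library and 2 higher ones, and in Krt15 each held 1 high library and 2 low ones. Krt5 (ENSMUSG00000061527, chromosome 15, 101707070 to 101712898 on GRCm38) was at 16.4, 616 and 1120.05 TPM in SRT1720 libraries 1, 2 and 3, against 425, 9.61 and 741 TPM in Vehicle libraries 1, 2 and 3. Krt14 (ENSMUSG00000045545, chromosome 11, 100203162 to 100207548), its type I partner, was at 18.7, 443 and 693 TPM with SRT1720, against 307, 18.9 and 290 TPM with vehicle. In both genes SRT1720 1 and Vehicle 2 were low, SRT1720 3 was the highest, and the groups overlapped. For Krt14, SRT1720 2 and 3 both lay above all 3 Vehicle libraries.

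Krt6a (ENSMUSG00000058354, chromosome 15, 101689910 to 101694307), a type II keratin gene induced in wounded and hyperproliferative epithelium, was at 27.0, 370.5 and 550.4 TPM in SRT1720 libraries, against 395, 11.01 and 372 TPM in Vehicle libraries. It has a close copy, Krt6b, and the treatment of reads that map to both is unknown here. Krt17 (ENSMUSG00000035557, chromosome 11, 100256217 to 100261029), a type I keratin gene of activated basal cells, was at 53.9, 206 and 609 TPM in SRT1720 libraries, against 303, 36.3 and 832 TPM in Vehicle libraries. Its highest library was Vehicle 3, and of the 10 genes it alone had a negative fitted difference. Krt15 (ENSMUSG00000054146, chromosome 11, 100131758 to 100135928), a type I keratin gene of basal and progenitor cells, was at 0.379, 138 and 1.58 TPM in SRT1720 libraries, against 58.5, 0.311 and 1.12 TPM in Vehicle libraries. Unlike the other basal keratin genes it was high in 1 library of each group and near or below 1.6 TPM in the rest.

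Trp63 (ENSMUSG00000022510, chromosome 16, 25683763 to 25892102) was at 0.580, 7.20 and 10.2 TPM with SRT1720, against 3.61, 0.261 and 10.7 TPM with vehicle. Its 2 highest libraries, SRT1720 3 and Vehicle 3, were in different groups. Cd44 (ENSMUSG00000005087, chromosome 2, 102811141 to 102901665) was at 20.3, 27.6 and 36.6 TPM with SRT1720, against 22.2, 10.7 and 28.4 TPM with vehicle. This was the narrowest spread of the 10 genes, with the highest library 3.41 times the lowest.

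Among the genes of cell junctions, Dsc3 (ENSMUSG00000059898, chromosome 18, 19960930 to 20002351), a desmocollin, was at 0.167, 14.4 and 16.9 TPM in SRT1720 libraries, against 6.83, 0.052 and 7.02 TPM in Vehicle libraries. The lowest value rests on 13 reads and the next on 48. Dsg3 (ENSMUSG00000056632, chromosome 18, 20510274 to 20547459), a desmoglein, was at 1.71, 11.5 and 21.5 TPM in SRT1720 libraries, against 8.81, 0.769 and 9.36 TPM in Vehicle libraries. In both cadherin genes, as in Krt14, SRT1720 2 and 3 lay above all 3 Vehicle libraries, while SRT1720 1 lay below 2 of them. Col17a1 (ENSMUSG00000025064, chromosome 19, 47646344 to 47692094) was at 1.45, 23.97 and 57.8 TPM in SRT1720 libraries, against 21.97, 1.56 and 52.6 TPM in Vehicle libraries, nearly the same 3 levels in each group.

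**Figure D1:**
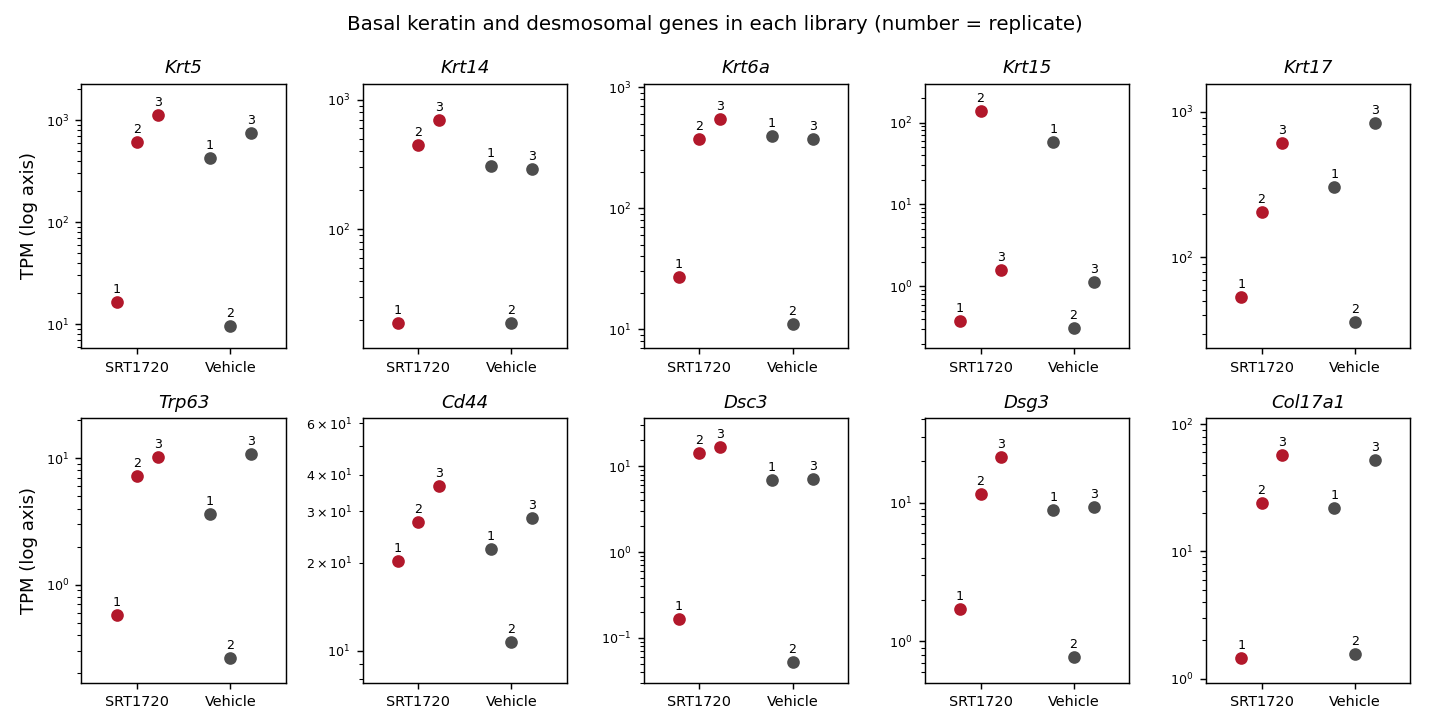
TPM of each of the 10 genes (log axis, a separate scale per panel) in the 3 SRT1720 and 3 Vehicle libraries; each point is a library and its number the replicate. SRT1720 1 and Vehicle 2 are the lowest points in every panel, and Krt15 is also low in SRT1720 3 and Vehicle 3.

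Means were 584 ± 552 TPM with SRT1720 and 392 ± 367 TPM with vehicle for Krt5 (SD, n = 3 each), and 28.2 ± 8.17 and 20.4 ± 8.96 TPM for Cd44, the gene with the smallest spread. The fitted log2 fold change of TPM + 1, SRT1720 minus Vehicle, was above 0 in 9 of the 10 genes, with a median of 0.54, where 54.8% of all genes tested were above 0 with a median of 0.04. It was highest for Dsc3, at 0.76 (SE 1.24, 95% interval −2.20 to 3.72, adjusted p = 0.864 by limma with Benjamini-Hochberg adjustment over all genes). Cd44 had the narrowest interval, 0.51 (SE 0.38, −0.41 to 1.42, adjusted p = 0.644), which still holds a change of more than 2-fold. Krt5 was at 0.61 (SE 2.07, −4.33 to 5.56) and Krt17 at −0.15 (SE 1.28, −3.21 to 2.91). By limma 0 of the 10 genes were called at an adjusted p under 0.05, where 0% of all genes tested were called, and 0 of the 10 had an unadjusted p under 0.05, where 1153 of 9287 genes did. Voom on recovered reads also called 0 genes, and 1107 had an unadjusted p under 0.05. In none of the 10 genes were the groups free of overlap, where 12.1% of genes tested had all SRT1720 libraries higher and 7.75% all lower. Exact two-sided permutation tests of the single genes gave p = 0.5 to 1, and 0.1 is the smallest p that 3 libraries per group allow. A p that misses the threshold does not show that the groups were alike.

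**Figure D2:**
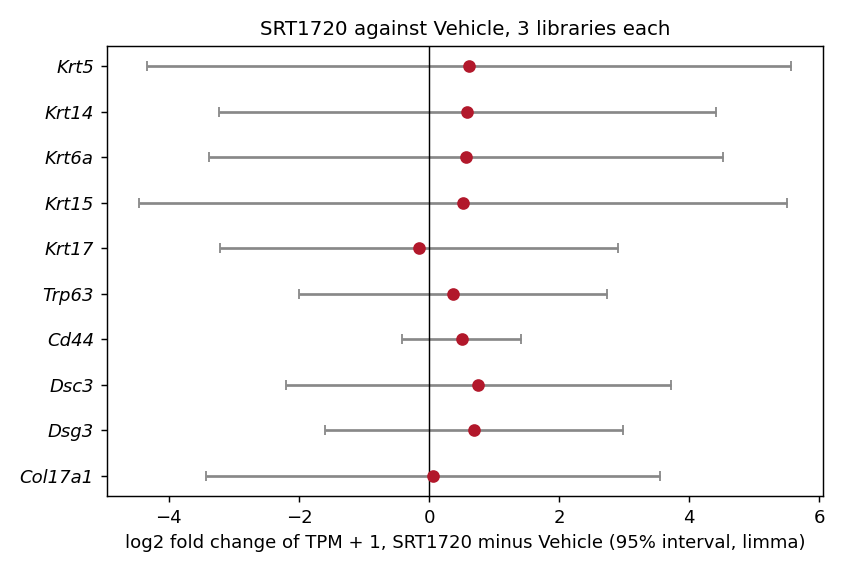
Log2 fold change of TPM + 1, SRT1720 minus Vehicle (x axis), for each of the 10 genes with its 95% interval from limma (bars; 3 libraries per group). Every interval crosses 0; that of Krt5 runs from −4.33 to 5.56 and that of Cd44 from −0.41 to 1.42.

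The sign of the difference depended on which library was in the fit. Of the 10 genes, 9 were above 0 with all libraries, 10 without SRT1720 1, 5 without SRT1720 2, 4 without SRT1720 3, 10 without Vehicle 1, 1 without Vehicle 2 and 9 without Vehicle 3. The median over the 10 genes was 1.68 without SRT1720 1 and −0.61 without Vehicle 2. Cd44 alone kept a positive value in all of these fits, from 0.12 to 0.78.

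Setting aside both libraries with Krt5 under 100 left SRT1720 2 and 3 against Vehicle 1 and 3. Krt14, Dsc3 and Dsg3 then had both SRT1720 libraries above both Vehicle libraries, 3 of 10 genes, where 22.9% of genes tested did. Dsc3 differed by 1.06 (SE 0.17, adjusted p = 0.430 by limma), Krt14 by 0.89 (SE 0.25, adjusted p = 0.436) and Dsg3 by 0.73 (SE 0.33, adjusted p = 0.486) on the log2(TPM + 1) scale, and none of the 10 passed. Between the set-aside libraries, SRT1720 1 was above Vehicle 2 in 8 of 10 genes, where 59.4% of genes tested were, and Krt14 and Col17a1 were the exceptions. These 2 libraries have no replicate, so that count has no test.

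The split of libraries by Krt5 was made from a measured value and is described without a test. The libraries nearest to the limit of 100 were SRT1720 1 below it, at 16.4 TPM, and Vehicle 1 above it, at 425 TPM, and neither was close to it. In all 10 genes SRT1720 1 and Vehicle 2 lay below the other 4 libraries, where 12.3% of genes tested did. Because the genes were chosen with this pattern known, nothing is read from that count. In bulk RNA, fewer basal cells and less of these RNAs per cell cannot be told apart. The gap between the 2 sets differed widely among the genes: the lowest of the 4 libraries was 40.8 times the higher of the 2 for Dsc3, 25.9 times for Krt5, 15.3 times for Krt14, 14.1 times for Col17a1 and 13.7 times for Krt6a. It was 6.23 times for Trp63, 5.15 times for Dsg3, 3.82 times for Krt17 and 2.96 times for Krt15. Cd44 barely separated, with 22.2 TPM in Vehicle 1 and 20.3 TPM in SRT1720 1, or 1.09 times.

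Over all 6 libraries, Krt15 and Krt5 had the largest ranges of log2(TPM + 1) among the 9287 genes tested, 6.72 for each, where the median range was 0.74. Ranges as large as that of Krt6a (5.52) were seen in 0.0969% of genes and as large as that of Trp63 (3.22) in 0.991%. Cd44, with a range of 1.68, was exceeded or matched by 8.03% of genes. The genes were chosen with this variation known, and Krt15, Trp63 and Dsc3 passed the filter only through the libraries where they were high, so these ranks are a description.

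The composition of the basal keratins also differed between the libraries, as ratios of TPM. Lengths recovered from the table differ from exon lengths for some genes (2820 against 1758 bases for Krt14, 2190 against 2197 for Krt5), so only how a ratio moves across libraries is read. Krt5 over Krt14 was 0.876 in SRT1720 1 and 0.508 in Vehicle 2, against 1.39 and 1.62 in SRT1720 2 and 3 and 1.38 and 2.56 in Vehicle 1 and 3. Krt17 over Krt5 was 3.28 in SRT1720 1 and 3.78 in Vehicle 2, against 0.335 to 1.12 in the other 4. Relative to Krt5, Krt17 was thus higher in both low libraries than in any other. Those libraries were set apart by low Krt5, which by itself lowers Krt5 over Krt14 and raises Krt17 over Krt5 there. Relative to Krt14, Krt17 was higher in both low libraries than in SRT1720 2, SRT1720 3 and Vehicle 1. Vehicle 3 was not separated from them: Krt17 and Krt14 were at 36.3 and 18.9 TPM in Vehicle 2, against 832 and 290 TPM in Vehicle 3. Dsc3 over Dsg3 was 0.0978 in SRT1720 1 and 0.0676 in Vehicle 2, against 0.75 to 1.25 in the other 4, so these cadherins did not differ by the same factor. Reads of the 5 basal keratin genes made up 0.0603% of recovered reads in SRT1720 1 (95% Wilson interval 0.0593% to 0.0614%) and 0.0404% in Vehicle 2 (0.0395% to 0.0413%). They made up 1.05%, 1.70% and 0.851% in SRT1720 2, SRT1720 3 and Vehicle 1, and 1.18% in Vehicle 3. These intervals cover counting error only.

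Among the 4 libraries with high Krt5, Krt15 was high in SRT1720 2 and Vehicle 1 and low in SRT1720 3 and Vehicle 3, and its highest value was 123 times its lowest. The other 9 genes differed by 1.49 (Krt6a) to 4.04 times (Krt17) over the same libraries. Krt15 over Krt5 was 0.223 in SRT1720 2 and 0.138 in Vehicle 1, against 0.00141 in SRT1720 3 and 0.00151 in Vehicle 3. Krt13, a type I keratin gene of intermediate and mucosal epithelium that neighbors Krt15, was likewise at 89.4 and 47.7 TPM in SRT1720 2 and Vehicle 1, against 2.09 and 0.196 TPM in SRT1720 3 and Vehicle 3. In the same libraries the macrophage and neutrophil gene Lyz2 was at 10.5 TPM in SRT1720 2 and 14.3 TPM in Vehicle 1, and was listed at 0 in the other 4. The summed leukocyte list was 11.7 and 16.1 TPM in SRT1720 2 and Vehicle 1, with 1.04 to 3.12 TPM elsewhere. Most of both sums was Lyz2. The other leukocyte gene at a mean of 1 TPM or more, Cd68, did not share this pattern. It was at 0.730 and 1.45 TPM in SRT1720 2 and Vehicle 1 and at 1.03 to 3.09 TPM elsewhere. The summed fibroblast list was 2.83 and 4.20 TPM in SRT1720 2 and Vehicle 1, with 0.0708 to 0.596 TPM elsewhere. The leukocyte and fibroblast lists were within 1.37 to 1.99 TPM and 0.461 to 0.596 TPM in the libraries with Krt5 under 100. The general leukocyte marker Ptprc stayed at 0.0129 TPM or below and Cd3e was listed at 0 throughout. The part of such cells in the Krt15 pattern was not tested.

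Keratin genes lie in a type I cluster on chromosome 11 and a type II cluster on chromosome 15, at the end of which sits the type I gene Krt18. On chromosome 11, 6 keratin genes were tested, and Krt15, Krt14, Krt16 and Krt17 were lower in SRT1720 1 and Vehicle 2 than in the other 4 libraries, while Krt13 and Krt19 overlapped. On chromosome 15, 8 were tested, and the neighbors Krt6b, Krt6a and Krt5 were lower there. Krt7 and Krt18, keratins of simple and luminal epithelium, were higher in SRT1720 1 and Vehicle 2 than in all other libraries, and Krt80, Krt4 and Krt8 overlapped. Of all genes tested, 12.3% were lower in those libraries than in all others and 16.2% higher. Krt15, Krt14, Krt17, Krt6a and Krt5 were chosen with this pattern known, so nothing is read from their part in it. Krt7 barely separated, with 15.6 and 15.4 TPM in SRT1720 1 and Vehicle 2, 14.9 TPM in Vehicle 1 and 0.803 to 10.3 TPM in the rest. Krt18, 315 kb from Krt5, was at 226 and 162 TPM in SRT1720 1 and Vehicle 2, while the other 4 libraries lay between 25.3 and 57.6 TPM. Krt5 over Krt18 was thus 0.0725 in SRT1720 1 and 0.0595 in Vehicle 2, against 8.85 to 44.3 in the others. Of the summed TPM of the 5 basal and 5 luminal keratins (Krt7, Krt8, Krt18, Krt19 and Krt20), the basal share was 22.1% and 22.4% in SRT1720 1 and Vehicle 2, against 92.3% to 96.7% in the other 4. As the split was made by Krt5, Krt5 over Krt18 and the basal share are lowered there in part by that choice.

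**Figure D3:**
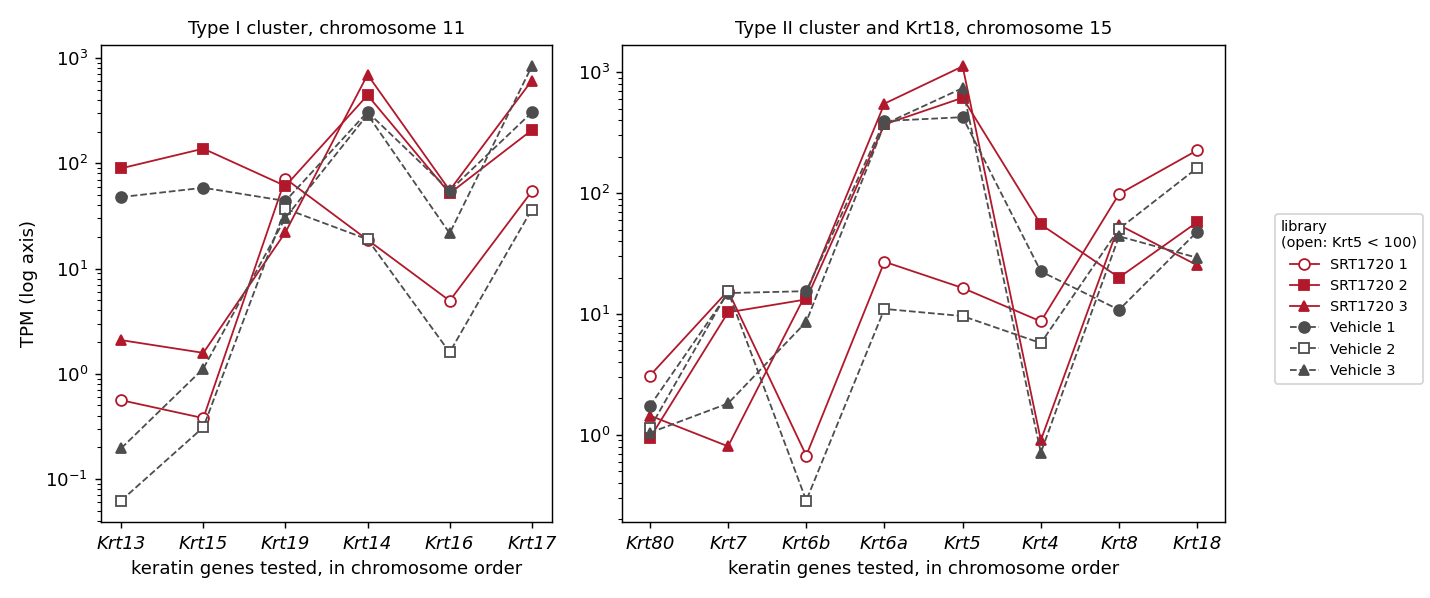
TPM (log axis) of the keratin genes tested on chromosome 11 (left) and chromosome 15 (right), in chromosome order and not to scale; each line is a library, red solid for SRT1720 and grey dashed for Vehicle, with open symbols where Krt5 is under 100. The open symbols lie lowest from Krt6b to Krt5 and from Krt14 to Krt17, and highest at Krt18.

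Other genes of the same structures were read from lists named by function. Of 13 other desmosomal genes, 8 were tested, all 8 had log2 fold changes above 0 for SRT1720 against Vehicle with a median of 0.28, and 0 were called. Without SRT1720 3 or without Vehicle 2, 4 of 8 were above 0, with medians of −0.02 and 0.02, and without SRT1720 1 all 8 were, with a median of 0.66. Perp, a p63-dependent desmosomal membrane gene, was at 35.7, 81.1 and 120.3 TPM with SRT1720, against 66.8, 27.0 and 153 TPM with vehicle. Dsp, which links desmosomes to keratin, was at 6.53, 16.5 and 37.8 TPM against 15.4, 7.55 and 26.0 TPM. Pkp1, a plakophilin, was at 2.54, 13.9 and 37.2 TPM with SRT1720 against 11.6, 2.28 and 23.4 TPM with vehicle. The groups overlapped in all 3. Pkp3 had the smallest p of the list (log2 fold change 0.52, SE 0.35, adjusted p = 0.593 by limma). In 6 of the 8, SRT1720 1 and Vehicle 2 lay below the other 4 libraries, where 12.3% of all genes tested did. Dsc2 and Jup barely separated, at 0.868 and 9.05 TPM in SRT1720 1 against 0.873 and 9.70 TPM in Vehicle 1. Pkp2 and Dsg2 were the exceptions. Dsg2, the desmoglein of simple epithelium, was at 3.72 and 2.91 TPM in SRT1720 1 and Vehicle 2, against 1.73 to 3.94 TPM in the others. Dsg3 over Dsg2 was therefore 0.459 in SRT1720 1 and 0.264 in Vehicle 2, against 2.37 to 6.29 in the other 4. A gene that is low in those 2 libraries can pass the filter through the other 4, so counts of this kind describe the genes that passed.

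Of 10 hemidesmosome and epithelial laminin genes, all tested, 4 were above 0 and 6 below for SRT1720 against Vehicle with a median of −0.02, and 0 were called. The number above 0 was 1 of 10 without Vehicle 2, 2 without SRT1720 3, and 7 without SRT1720 1 or without Vehicle 3. Itga6, an integrin subunit that binds laminin beside the product of Col17a1, was at 8.91, 19.98 and 33.7 TPM with SRT1720 against 23.6, 8.51 and 28.8 TPM with vehicle, and its groups overlapped. The integrin genes Itga3 and Itgb1 varied less, from 26.3 to 37.9 TPM and from 25.2 to 47.3 TPM over the 6 libraries. In 7 of the 10, SRT1720 1 and Vehicle 2 lay below the other 4, where 12.3% of all genes tested did. The margin was narrow for Itga3, Plec and Itgb1, with the lowest of the other 4 at 1.16, 1.21 and 1.24 times the higher of those 2. This list, like the others, was chosen with earlier results of these data known, so nothing is read from that count.

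Among transcription factors of stratified epithelium, 11 of 16 were tested, 8 above 0 with a median of 0.21, and 0 were called, and 5 were above 0 without SRT1720 3. Sox15 was at 0.408, 24.1 and 22.9 TPM with SRT1720 against 13.6, 0.271 and 8.68 TPM with vehicle. Klf5 was at 24.6, 28.3 and 29.7 TPM with SRT1720 against 35.6, 30.6 and 30.5 TPM with vehicle (log2 fold change −0.22, SE 0.17, adjusted p = 0.643 by limma). It alone of the 11 did not overlap between groups, where 7.75% of genes tested had all SRT1720 libraries lower and 12.1% all higher. Of the 11, 3 (Sox15, Bnc1 and Snai2) were lower in both SRT1720 1 and Vehicle 2 than in the other 4, and Grhl1 was higher. Of all genes tested, 12.3% were lower there and 16.2% higher. Klf4, Klf5 and Tfap2a overlapped between the 2 sets of libraries. Trp63 did not, but it was chosen with this pattern known, so nothing is read from that contrast.

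Of 14 other basal surface and matrix genes, 12 were tested, 8 above 0 with a median of 0.24, and 0 were called. Only 4 were above 0 without SRT1720 3 or without Vehicle 2, and 12 were without Vehicle 3. Fermt1, which encodes the integrin activator kindlin-1, was at 1.26, 1.82 and 1.495 TPM with SRT1720 against 0.883, 0.538 and 0.786 TPM with vehicle (log2 fold change 0.54, SE 0.15, adjusted p = 0.303 by limma). It alone of the 12 did not overlap between groups, where 12.1% of genes tested had all SRT1720 libraries higher and 7.75% all lower. The most abundant of the 12 were Sfn, an epithelial 14-3-3 gene, Lgals7, a galectin gene of stratified epithelium, and the aquaporin gene Aqp3. Sfn was at 16.2, 87.3 and 148.5 TPM with SRT1720 against 76.6, 8.09 and 76.1 TPM with vehicle. Lgals7 was at 4.55, 24.5 and 164 TPM against 13.7, 5.97 and 84.3 TPM, and Aqp3 at 1.35, 8.58 and 62.5 TPM against 2.71, 0.274 and 28.2 TPM. Lgals7 and Aqp3 stood highest in SRT1720 3 and Vehicle 3. In SRT1720 1 and Vehicle 2, 8 of the 12 were lower than in the others, where 12.3% of all genes tested were. Cdh3 was among the 8 by a narrow margin, with 3.57 TPM in Vehicle 2 and 3.91 TPM in Vehicle 1. Around Cd44, 8 of 12 genes for hyaluronan turnover, ligands, linkers and splicing were tested, 6 above 0 with a median of 0.17, and 0 were called. Ezr and Msn, whose products link CD44 to actin, were at 45.1, 56.7 and 49.3 TPM with SRT1720 against 43.5, 48.8 and 39.5 TPM with vehicle, and at 17.4, 20.6 and 25.8 TPM against 24.1, 17.1 and 32.8 TPM. Esrp2, an epithelial splicing regulator, was at 1.80, 2.14 and 2.83 TPM with SRT1720 against 0.716, 1.56 and 0.861 TPM with vehicle (log2 fold change 0.68, SE 0.21, adjusted p = 0.328 by limma). It alone of the 8 did not overlap between groups, where 12.1% of genes tested had all SRT1720 libraries higher and 7.75% all lower.

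Of 17 other keratin genes, 9 were tested, 8 above 0 with a median of 0.32 (5 above 0 without SRT1720 2), and 0 were called. Luminal markers had 8 of 15 tested, 6 above 0 with a median of 0.25 (4 above 0 without SRT1720 1 or without Vehicle 3), and 0 called. Of these, 3 of the 8 were higher in SRT1720 1 and Vehicle 2 than in the other 4, where 16.2% of genes tested were. Krt7 was among the 3 by a narrow margin, with 15.4 TPM in Vehicle 2 and 14.9 TPM in Vehicle 1. Upk1b, a uroplakin gene, went with the basal genes, with 1.47 and 0.660 TPM in SRT1720 1 and Vehicle 2 and a range of 2.72 to 12.1 TPM elsewhere. Of 17 cornified squamous genes 5 were tested, 2 above 0 with a median of −0.12, and 0 called, and the number above 0 ran from 1 without SRT1720 3 or without Vehicle 2 to 3 without SRT1720 1, Vehicle 1 or Vehicle 3. Of the 5, Sprr2a1, Krtdap and Tgm1 were lower in SRT1720 1 and Vehicle 2 than in the other 4 libraries, where 12.3% of all genes tested were. Krtdap was listed at 0 in both and passed the filter only through the other 4. Sbsn overlapped. Sprr1a, a cornified envelope gene, was higher, where 16.2% of all genes tested were. It was at 41.9 and 57.9 TPM in SRT1720 1 and Vehicle 2, while the other 4 libraries lay between 1.51 and 17.1 TPM. Of 7 pan-epithelial markers, all were tested and all above 0 with a median of 0.16, and 0 were called. Cldn4, Esrp1 and Ocln, 3 of the 7, were higher in SRT1720 1 and Vehicle 2 than in all other libraries, and none was lower. Of all genes tested, 16.2% were higher there and 12.3% lower. Esrp1 was among the 3 by a narrow margin, with 8.27 TPM in Vehicle 2 and 8.18 TPM in SRT1720 3. The number of pan-epithelial markers above 0 was 1 of 7 without Vehicle 1 (median −0.27), 2 of 7 without SRT1720 1 (median −0.05) and 4 of 7 without SRT1720 3.

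**Figure D4:**
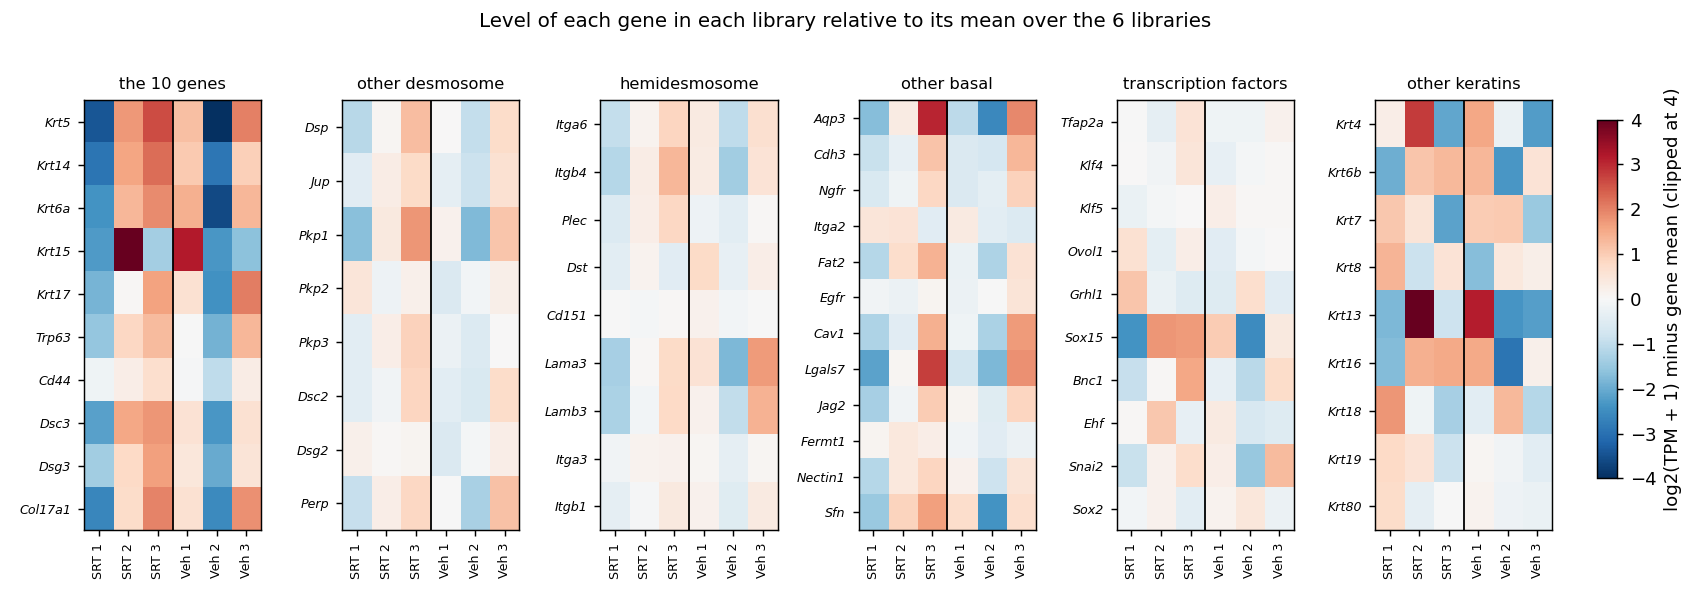
Level of tested genes in each library as log2(TPM + 1) minus the gene's mean over the 6 libraries (color, clipped at 4), for the 10 genes and 5 related lists; SRT1720 libraries are left of the black line and Vehicle libraries right of it. SRT 1 and Veh 2 are blue for all 10 genes, and Krt15 and Krt13 are red in SRT 2 and Veh 1 only.

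Likeness to Krt5 was measured as the root-mean-square distance between log2(TPM + 1) profiles over the 6 libraries, each centered on its mean, among 8080 protein-coding genes. The nearest were Krt6a (0.64), Krt14 (0.71) and Col17a1 (0.90), from the genes described here. Outside them the nearest 8 were Sox15 (1.08), Sprr2a1 (1.10), the tensin gene Tns4 (1.16), Sprr2a2 (1.16), Krt16 (1.22), Krt6b (1.26), Sfn (1.31) and Tgfbi (1.40). Sprr2a1 and Sprr2a2 are near-identical copies, so their reads may be split between them. Sox15, a transcription factor gene, was at 0.408 and 0.271 TPM in SRT1720 1 and Vehicle 2, against 8.68 to 24.1 TPM in the other 4. Dsc3 was at a distance of 1.14, Krt17 of 1.26, Dsg3 and Trp63 of 1.47, Cd44 of 2.26 and Krt15 of 2.72. Thus Krt15, although a basal keratin, ranked 3839th of the 8080 genes in nearness to Krt5. The distance is not scaled to a gene's range, so it is also large for genes that vary little, such as Cd44. Krt15 was low in SRT1720 1 and Vehicle 2 as Krt5 was, and departed from it in SRT1720 3 and Vehicle 3.

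Nearest to the mirror image of the Krt5 profile were Gdf15 (1.18), a stress-induced cytokine gene, Cxcl2 (1.23), a chemokine gene, Saa3 (1.24), an acute-phase gene, Nupr1 (1.25), a stress-induced regulator gene, and Fgf21 (1.34), a stress-induced hormone gene. Nupr1 was at 26.0 and 65.1 TPM in SRT1720 1 and Vehicle 2, while the other 4 libraries lay between 0.951 and 7.99 TPM. Gdf15 was at 13.5 and 50.4 TPM in SRT1720 1 and Vehicle 2, against 0.254 to 7.40 TPM in the others. These distances describe 6 libraries that fall into few patterns, and many genes share them.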

How the data were processed

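Bulk RNA was sequenced from 3 SRT1720 and 3 Vehicle libraries, grouped by sample title. Expression values are TPM as the authors deposited them, in a single table. The submitters' processing notes list STAR 2.6.0 and GRCm38 without saying what each was used for. The counting program, annotation and gene lengths were not stated in the sources used here. Deposited TPM columns summed to 161231 to 171577 and not to 1000000, so levels are relative. Values fell on steps of whole reads (within 0.02), which gave reads for all 27713 IDs above 0, and 1 read per kb of gene equalled 0.017 to 0.0212 TPM. The smallest length that made reads whole was taken, so reads of genes above 0 in few libraries may be too low, and wholeness is no check. Names and positions came from GENCODE M21 (51719 of 51912 IDs matched).

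Genes averaging 1 TPM or more were tested on log2(TPM + 1) with limma 3.58.1 in R 4.3.3 (mean trend), adjusted by Benjamini-Hochberg and called under 0.05, with scripts tested on simulated data. Fold changes on this scale understate those of low genes. Single genes were also tested by exact permutation. Python 3.11.15, pandas 2.3.3, numpy 2.4.6, scipy 1.17.1 and matplotlib 3.10.9 were used. The 10 genes and all lists were chosen with earlier results of these data known. From each list, the rule names the 3 genes of highest mean TPM and the 2 with the smallest p; not all of these are described, and some are not reported here. Dsg2, Dsc2, Jup, Cdh3, Krt4, Krt6b, Krt7, Krt13, Krt16, Bnc1, Snai2, Grhl1, Tfap2a, Upk1a, Upk2, Upk3a, Upk3b, Krt20, Tgm1, Cldn7, Ocln, Ptprc and Cd3e fall outside it and were chosen after their values were seen. Alternatives were other pseudocounts, filters and scalings, voom on recovered reads, a replicate block, and each library left out.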

Additional observations from a re-analysis of the deposited data

How the results depend on the processing

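All fits called 0 genes. By limma, 523 to 1153 of 9287 genes had an unadjusted p under 0.05 in fits with the main filter. With no filter 2028 of 27713 genes did, and with a mean of at least 5 TPM 498 of 3594 did. The adjusted p of the 10 genes by limma ranged from 0.430 to 0.999 over 14 alternatives each. The sign turned in 22 of 140 refits, 21 of them with 1 library left out; the other was Col17a1 at −0.0080 with voom on recovered reads. With 1 library left out, log2 fold changes ran from −1.29 to 2.47 for Krt5, −0.71 to 2.19 for Krt14, −1.10 to 1.90 for Krt6a, −1.54 to 2.24 for Krt15, −1.40 to 0.84 for Krt17, −0.48 to 1.23 for Trp63, −0.21 to 2.04 for Dsc3, −0.14 to 1.57 for Dsg3 and −1.20 to 1.39 for Col17a1. List medians ran from −0.086 (without SRT1720 3) to 0.33 for transcription factors, −0.02 to 0.66 for other desmosomal genes, −0.39 to 0.19 for hemidesmosome genes, −0.29 to 0.57 for other basal genes, 0.10 to 0.25 for genes around Cd44, 0.12 to 0.60 for other keratins, −0.11 to 0.62 for luminal markers, −0.68 to 0.37 for squamous genes, −0.27 to 0.57 for pan-epithelial markers and −0.61 to 1.68 for the 10 genes. SRT1720 1 and Vehicle 2 remained below the other libraries in all 10 genes under median-of-ratios and quantile scaling, alternatives chosen after seeing the data.

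Replicate numbers did not pair the samples: same-numbered libraries had correlations of their deviations from group means of −0.197, −0.262 and 0.788, and libraries numbered 1 and 2 correlated best with another number (SRT1720 1 with Vehicle 2 at 0.721, SRT1720 2 with Vehicle 1 at 0.676). The labels used here tie no library of one group to one of the other, so fits other than the block are unpaired. A shared organoid line or animal behind these resemblances was not tested, and its spread would stand in the errors given. With the replicate block, 0 genes were called and 1133 had an unadjusted p under 0.05.

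Depth limits Dsc3, Krt15, Trp63 and Dsg3 most in SRT1720 1 and Vehicle 2, where 13 to 394 reads stand behind each value.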
